A study of Homo sapiens with 8 samples.

Results

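Open chromatin was described at 34 proliferation and E2F genes in the adrenocortical carcinoma line NCI-H295R, a human cell line in long-standing use. A peak belonged to a gene when its summit lay inside the gene, or within 100 kb of the gene's ends and nearer to it than to any other protein-coding gene. By that rule the 34 genes, of 19974 protein-coding genes on chromosomes 1 to 22 and X, held 44 of the 41086 peaks listed with EZH2i, 62 of 47161 with CBPi, 48 of 51095 with FSK and 65 of 61016 with vehicle. A gene-end peak had its summit within 1 kb of either annotated end of the gene, and every other assigned peak was called distal. The genes were chosen by name, with earlier results of these data known, and no measured value entered the rule.

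The cells were measured by ATAC-seq, in which the transposase Tn5 inserts sequencing adapters where chromatin is open. There were 4 groups of 2 libraries, 8 in all, which the labels call biological replicates. EZH2i cells received 62 µM of EPZ-6438, an inhibitor of the histone H3 lysine 27 methyltransferase EZH2, and CBPi cells received 26 µM of PRI-724, an inhibitor of the coactivator CBP, both for 96 h at what the labels call IC-50 doses. FSK cells received vehicle for 48 h and then 10 µM of forskolin, an activator of adenylyl cyclase, for 48 h. Vehicle cells received DMSO for 96 h. Each group has 1 deposited peak list, so no value below carries a spread between replicates, no p-value was computed, and read depth is unknown. The 3 treated lists are each set against the same vehicle list. In such bulk samples, fewer cells with an open site and less opening per cell cannot be told apart.

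The genes fall along the cell cycle. E2F factors, held in check by the retinoblastoma protein, switch on genes for S phase entry, origin licensing and DNA synthesis, often through promoter letters such as TTGGCGC. Mitotic genes are switched on later by the MuvB complex with B-MYB and FOXM1, and many carry a cell cycle homology region (CHR, for example TTTGAA) together with the CCAAT box, letters bound by the factor NF-Y. Their products drive division and are widely read as proliferation markers in adrenocortical tumours.

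The promoter sequences below come from RefSeq (GRCh38.p14, the sequence of hg38) and are the 160 bases before the most upstream start in the promoter table, written 5′ to 3′ on the gene's strand. The first 5 are shown because they held the most E2F and CHR letters: CDK1 at chr10:60778171-60778330 (plus strand), CDT1 at chr16:88803629-88803788 (plus), CENPA at chr2:26785896-26786055 (plus), E2F3 at chr6:20401719-20401878 (plus) and PLK1 at chr16:23678729-23678888 (plus). The other 3 are shown because the rule gave their gene a gene-end peak in some lists only: MCM2 at chr3:127598251-127598410 (plus), MCM7 at chr7:100101398-100101557 (minus) and PCNA at chr20:5126623-5126782 (minus). Capitals mark matches on either strand to the E2F letters (TTGGCGC, or else TTCCCGC, or else TTGGCGG), to the CHR letters (TTTGAA, or else TTTAAA) and to the CCAAT box. A match on the opposite strand appears as its reverse complement, so that the CCAAT box is printed as ATTGG.
CDK1: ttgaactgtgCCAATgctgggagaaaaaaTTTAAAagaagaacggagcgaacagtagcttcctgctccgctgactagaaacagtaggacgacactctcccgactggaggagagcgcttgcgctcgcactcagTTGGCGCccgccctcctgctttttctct
CDT1: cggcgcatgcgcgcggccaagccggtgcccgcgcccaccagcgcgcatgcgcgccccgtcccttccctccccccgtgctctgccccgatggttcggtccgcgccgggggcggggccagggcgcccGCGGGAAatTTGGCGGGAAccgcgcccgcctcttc
CENPA: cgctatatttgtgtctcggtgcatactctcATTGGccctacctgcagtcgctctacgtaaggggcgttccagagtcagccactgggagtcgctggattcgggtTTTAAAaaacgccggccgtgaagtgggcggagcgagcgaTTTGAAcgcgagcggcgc
E2F3: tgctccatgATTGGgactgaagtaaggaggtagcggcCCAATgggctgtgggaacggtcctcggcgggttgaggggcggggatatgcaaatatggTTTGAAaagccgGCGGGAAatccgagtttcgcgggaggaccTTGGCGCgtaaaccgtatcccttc
PLK1: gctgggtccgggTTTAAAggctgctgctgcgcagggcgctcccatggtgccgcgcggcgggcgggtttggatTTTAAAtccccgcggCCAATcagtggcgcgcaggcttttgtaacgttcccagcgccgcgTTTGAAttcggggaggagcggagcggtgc
MCM2: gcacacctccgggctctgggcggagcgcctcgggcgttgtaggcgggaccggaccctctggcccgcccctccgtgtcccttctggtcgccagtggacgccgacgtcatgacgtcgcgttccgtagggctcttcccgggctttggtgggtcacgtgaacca
MCM7: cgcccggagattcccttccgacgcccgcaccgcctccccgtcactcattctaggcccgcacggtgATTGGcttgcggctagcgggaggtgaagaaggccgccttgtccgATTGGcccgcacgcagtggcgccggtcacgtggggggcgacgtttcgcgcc
PCNA: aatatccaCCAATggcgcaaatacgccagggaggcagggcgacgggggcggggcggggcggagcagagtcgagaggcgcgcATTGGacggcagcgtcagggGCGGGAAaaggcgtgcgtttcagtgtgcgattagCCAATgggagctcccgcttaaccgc
In CDT1 the letters TTGGCGG and the opposite-strand TTCCCGC overlapped, which makes 1 longer run of capitals. The MCM2 stretch held none of the searched letters.

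The lists differed in length, which bears on every count of lost peaks. They covered 31.5 Mb with EZH2i, 36.7 Mb with CBPi, 35.7 Mb with FSK and 42.7 Mb with vehicle. The deposited signal is the area of significance under a peak, starting at 200 in every list, and is the authors' own value. It was ranked within each list only. Areas of several lists are printed side by side below, but with read depth unknown their differences are not read as changes of signal. Of 10 adrenocortical markers 6 had a gene-end peak with EZH2i, 6 with CBPi, 8 with FSK and 7 with vehicle. The steroidogenic enzyme genes CYP11B1 and HSD3B2 had none in any list, and CYP21A2 had none with EZH2i, CBPi or vehicle. MC2R, the ACTH receptor gene, had none with EZH2i or CBPi but had one with FSK and vehicle. Fibroblast markers had 0 of 5 with EZH2i, 1 of 5 with CBPi, 0 of 5 with FSK and 0 of 5 with vehicle, and immune markers 2, 3, 2 and 1 of 5 in that order. Endothelial markers had 1 of 4 in every list, without PECAM1, CDH5 or VWF.

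Gene ends of the proliferation genes were open in all 4 lists. Counting every summit within 1 kb of an end, also where it lay nearer to a neighbouring gene, 33 of the 34 genes had a gene-end peak with EZH2i, with CBPi, with FSK and with vehicle. Over all protein-coding genes the shares were 62.5% with EZH2i, 64.5% with CBPi, 62.5% with FSK and 64.8% with vehicle. Counted by gene, 0 of 33 genes with a vehicle gene-end peak had none with EZH2i, where 5.22% of 12937 genes had none, and 0 of 33 had none with CBPi (background 3.05%) or with FSK (background 5.5%). With 33 genes a count of 0 has a Wilson 95% upper bound of 10.4%, so these backgrounds lie within it. Among 90 other cell cycle genes, 84 had a gene-end peak with EZH2i, 84 with CBPi, 84 with FSK and 83 with vehicle, and 0 of the 83 was without one in any treated list.

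The single gene without a gene-end peak was UHRF1, which encodes a reader of hemimethylated DNA that brings DNMT1 to replicating chromatin. Its peak on chromosome 19 lay 6944 bp inside the outermost annotated end, at chr19:4909250-4910433 with vehicle, and its summit was 120 bp upstream of an annotated start there. The EZH2i summit lay 100 bp upstream of a start, the CBPi summit 74 bp and the FSK summit 70 bp. All 4 lists therefore held a peak at a UHRF1 start, although the gene-end definition missed it.

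Several of the genes share a start region with a neighbour, so that the strict rule moved the summit from one gene to the other. By the rule 27 genes had a gene-end peak with EZH2i, 30 with CBPi, 27 with FSK and 28 with vehicle. The summits of E2F3, FOXM1 and AURKA fell inside LOC124901482, RHNO1 and CSTF1 with vehicle. AURKA, a mitotic spindle kinase, was given its peak with EZH2i (71 bp from its end) and CBPi (74 bp) but not with FSK (203 bp) or vehicle (212 bp). MCM2, a subunit of the replicative helicase, was given it with CBPi (67 bp) and FSK (73 bp) but not with EZH2i or vehicle (113 bp each). PCNA, the sliding clamp of DNA polymerase, was given it with CBPi alone, where the summit stood 41 bp from the gene end, against 289 bp with vehicle. CDK2, a kinase of S phase entry, was given its main peak with vehicle (60 bp) but not with EZH2i (81 bp), CBPi (81 bp) or FSK (79 bp). MCM7 was given 1 of its gene-end peaks with vehicle and none in the treated lists. At AURKA, MCM2, PCNA and CDK2 all 4 lists held the peak and differed in where its summit stood, and at MCM7 they differed in how the region was divided. E2F3 and FOXM1 were given no gene-end peak in any list, since their summits fell inside the neighbour each time.

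Within each list the gene-end peaks ranged from small to among the largest. Their median area was 2008 with EZH2i, 2811 with CBPi, 1904 with FSK and 2455 with vehicle, against 1574, 2158, 1550 and 2064 over all gene-end peaks of the same lists. Among the 10% of each list with the largest areas were 8 of 28 with EZH2i (28.6%, all gene-end peaks 26.3%), 10 of 30 with CBPi (33.3%, all 29.2%), 10 of 28 with FSK (35.7%, all 30.8%) and 12 of 32 with vehicle (37.5%, all 35.6%). The shares of the proliferation genes were thus near those of all gene-end peaks.

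The E2F genes differed widely in area. E2F3, an activator E2F, had a peak of 3356 bp with EZH2i, 3997 bp with CBPi, 4053 bp with FSK and 4006 bp with vehicle, at chr6:20400854-20404859 in the vehicle list. The EZH2i list divided that region, with a second peak of 475 bp and area 410 at chr6:20404401-20404875. Larger areas were held by 0.355% of EZH2i peaks, 0.153% of CBPi peaks, 0.0607% of FSK peaks and 0.103% of vehicle peaks, and the summit stood at base 20401694 in every list. E2F1, the founding member of the family, had a gene-end area of 1968 with EZH2i, 2814 with CBPi, 2170 with FSK and 2730 with vehicle. E2F2 had 1155, 1984 and 1502 in the treated lists in the same order and 2321 with vehicle. Its summit lay 257 bp upstream of the start with EZH2i, but 330 bp downstream with CBPi, 179 bp downstream with FSK and 309 bp downstream with vehicle.

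By the rule, the largest vehicle gene-end peaks belonged to MCM4, TYMS and MKI67. MCM4, a helicase subunit, had an area of 4799 at chr8:47959753-47961912, over 2160 bp, and was held by all 4 lists. TYMS, thymidylate synthase, had 4466 at chr18:657326-658999, over 1674 bp, with its summit 655 bp downstream of the start in every list. MKI67, which encodes the Ki-67 proliferation antigen, had 4441 at chr10:128125461-128127101, over 1641 bp. The smallest were an MCM3 peak of area 201 at chr6:52263789-52264001 (213 bp), a second BUB1 peak of area 239 at chr2:110678544-110678975 (432 bp), and a CDK2 peak of area 378 at chr12:55972008-55972329 (322 bp).

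Those smallest peaks were the only gene-end peaks lost in any treated list, lost meaning that no base of the vehicle peak was covered. With EZH2i 29 of 32 gene-end vehicle peaks were kept (90.6%, Wilson 95% interval 75.8 to 96.8), and 8.01% of all 12151 gene-end vehicle peaks were lost. With CBPi 31 of 32 were kept (96.9%, 84.3 to 99.4, background lost 4.01%), and with FSK 30 of 32 (93.8%, 79.9 to 98.3, background lost 7.88%). The MCM3 peak, 100 bp beyond the 3′ end of that helicase subunit gene, was absent from all 3 treated lists. The CDK2 peak, 549 bp inside the end away from the main peak, was absent with EZH2i and FSK and had an area of 265 with CBPi. The BUB1 peak, 577 bp upstream of the start of this spindle checkpoint kinase gene, was absent with EZH2i, while in the CBPi and FSK lists 1 wider peak of 1345 bp and 1355 bp spanned it and the main BUB1 peak. The shares of the proliferation genes lay near those of all genes, and all 29 gene-end peaks above the vehicle-list median area of 581.4 were kept in each treated list. Over all genes 99.3%, 99.8% and 99.1% of such peaks were kept with EZH2i, CBPi and FSK.

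**Figure D1:**
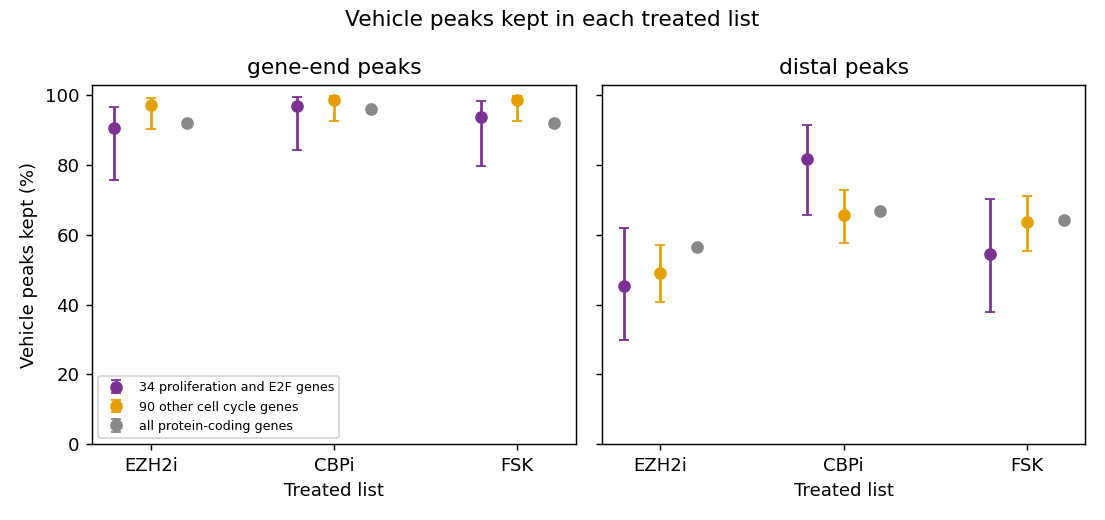
Percent of vehicle peaks kept in each treated list (vertical axis) for gene-end peaks (left) and distal peaks (right), for the 34 proliferation and E2F genes, 90 other cell cycle genes and all protein-coding genes. Points are shares and bars Wilson 95% intervals (counting error only). The proliferation genes kept 90.6%, 96.9% and 93.8% of gene-end peaks and 45.5%, 81.8% and 54.5% of distal peaks with EZH2i, CBPi and FSK.

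To place the genes within each list on a common footing, the gene-end peak of largest area was ranked among the 11883 genes that had a gene-end peak in all 4 lists, as a percentile from 0 to 100. This measures a gene's place in the order and not its signal, and the ranking was chosen after seeing the data. The median percentile of the 33 genes was 57.5 with EZH2i, 57.9 with CBPi, 56.6 with FSK and 55.7 with vehicle. The median difference from vehicle was −0.03 points with EZH2i, 3.45 with CBPi and −0.76 with FSK, against 0, 0.11 and 0 over all 11883 genes. A place lower by 10 points or more was seen for 4 of 33 genes with EZH2i (background 8.56%), 3 with CBPi (background 12%) and 2 with FSK (background 8.06%). A place higher by 10 points or more was seen for 2 with EZH2i (background 7.91%), 6 with CBPi (background 11.5%) and 4 with FSK (background 7.67%). As shares of 33 the lower places were 12.1%, 9.09% and 6.06%, and the higher places 6.06%, 18.2% and 12.1%.

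MKI67 stood lower in each treated list than with vehicle. Its gene-end area was 2439 with EZH2i, at percentile 66.5, 2809 with CBPi, at percentile 56.7, 2486 with FSK, at percentile 66.5, and 4441 with vehicle, at percentile 81.6. The differences were −15.01, −24.87 and −15.09 points, and 3.14%, 1.09% and 3.05% of all ranked genes had one as low with EZH2i, CBPi and FSK. Ranked by summed area at the gene ends they were −15.32, −25.29 and −15.62 points, and by the deposited −log10 p at the summit −22.57, −37.95 and −23.87 points. The 3 differences share the vehicle value, so they are not independent of each other, and with 1 list a group their error is unknown. By area MKI67 had the lowest difference of the 33 genes with CBPi and with FSK. The shares above are therefore those of an extreme picked from 33 genes.

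PLK1, a mitotic kinase, stood at percentile 38.3 with EZH2i, 42.6 with CBPi, 54.4 with FSK and 56.8 with vehicle. Its differences were −18.43, −14.14 and −2.40 points. In the EZH2i list its region was split into a peak of area 1396 and a second of 207.8, and ranked by summed area the EZH2i difference was −11.33 points. By −log10 p at the summit the PLK1 differences were −18.27, −25.54 and −21.35 points. E2F2 stood at percentile 29.8 with EZH2i, 36.2 with CBPi, 41.2 with FSK and 46.5 with vehicle, but by −log10 p at the summit its differences were −0.78, 1.16 and 5.91 points. AURKB, the kinase of the chromosomal passenger complex, stood at percentile 16.4 with EZH2i, 36.8 with CBPi, 29.9 with FSK and 31.8 with vehicle. Its EZH2i peak spanned 682 bp, against 1191 bp with CBPi, 1261 bp with FSK and 1195 bp with vehicle. Its differences were −15.37, 5.01 and −1.87 points by area and −6.96, 18.51 and −14.00 points by −log10 p at the summit.

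Some genes stood higher in the treated lists, and for several of them the lists differed in how many peaks divided the gene end. MCM7 stood at percentile 79.8 with EZH2i, 86.0 with CBPi, 71.7 with FSK and 42.6 with vehicle. The vehicle list divided that region into peaks of area 1427 and 2156, at chr7:100100450-100101008 and chr7:100101128-100102360, where each treated list held 1 peak. Ranked by summed area the MCM7 differences were 9.77, 15.91 and 1.36 points, in place of 37.23, 43.41 and 29.09, and by −log10 p at the summit they were 3.25, 25.66 and −3.52 points, so that the direction with FSK turned. CDT1, a licensing factor, stood at percentile 35.7 with EZH2i, 38.0 with CBPi, 23.6 with FSK and 25.1 with vehicle, and it too had 1 start-side peak with EZH2i and CBPi but 2 with FSK and vehicle. The direction for CDT1 turned with the ranking: its differences were 10.57, 12.83 and −1.58 points by largest peak, −3.91, 4.96 and 16.99 points by summed area, and −14.69, −16.98 and −5.95 points by −log10 p at the summit. The CDT1 sum also took in a peak at the other gene end, with its summit inside APRT, of area 266.5 with CBPi and 695.9 with FSK. With EZH2i and vehicle no summit lay within 1 kb of that end. The start-side CDT1 peaks had areas 418.5 and 955.9 with FSK, and 589.6 and 1470 with vehicle. TOP2A, the topoisomerase of mitotic chromosomes, had a single gene-end peak in every list and stood at percentile 27.3 with EZH2i, 36.2 with CBPi, 34.4 with FSK and 22.5 with vehicle. By −log10 p at the summit its differences were 10.39, 24.75 and 16.27 points.

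Among the remaining genes the differences by largest area ran from −12.08 points, for CDK2 with FSK, to 12.01 points, for BUB1 with FSK. MCM2 stood at 39.0, 40.8 and 37.8 in the treated lists in the order EZH2i, CBPi and FSK and at 30.5 with vehicle. By −log10 p at the summit its differences were 18.91, 27.14 and 17.58 points, higher in each treated list by either ranking. CDC25A, a phosphatase that activates CDKs, stood at 79.0, 83.7 and 70.1 and at 72.8 with vehicle, and by −log10 p it differed by 1.61, 15.53 and 1.29 points. FOXM1 stood at 54.7, 58.8 and 62.5 and at 51.6 with vehicle, but by −log10 p it differed by −3.11, −5.00 and 8.05 points. BUB1, whose vehicle gene end was divided into 2 peaks, stood at 19.3, 37.9 and 38.9 and at 26.9 with vehicle. Its differences of −7.59, 11.00 and 12.01 points were −13.13, 5.11 and 5.74 by summed area and −18.66, −1.35 and −2.12 by −log10 p at the summit, which turned the direction with CBPi and FSK. CDK2 stood at 32.0, 46.5 and 26.3 and at 38.4 with vehicle, and its FSK difference of −12.08 points was −20.85 by summed area and −1.21 by −log10 p. CDK1, the mitotic CDK, and its cyclin genes CCNB1, CCNB2 and CCNA2 lay within 7.38 points of vehicle in every list when ranked by largest area. So did the E2F1, E2F3, CDC6, MCM3, MCM4, MCM6, PCNA, TYMS, AURKA, BUB1B, CENPA, MAD2L1 and BIRC5 peaks, a group that spans licensing, synthesis and mitosis. Ranked by −log10 p at the summit, several of these lay farther off: AURKA by −19.52 points with EZH2i, BUB1B by 18.93 with CBPi, CCNB2 by −19.67 and E2F1 by −15.84 with FSK, and TYMS by 10.95, 11.37 and 10.34 with EZH2i, CBPi and FSK. CCNA2, CDC6, CENPA and MCM4 also passed 10 points in at least 1 list by that ranking. RRM1 and RRM2, the subunits of ribonucleotide reductase, MCM5 and CDC20, an activator of the anaphase-promoting complex, differed by up to 9.55 points by area. By −log10 p MCM5 differed by 17.74 points with CBPi and −16.79 with FSK, and CDC20 by 12.72 with CBPi. RRM1 differed by 11.98, 14.49 and 11.60 points with EZH2i, CBPi and FSK by that ranking. BIRC5, which encodes survivin, was the lowest of the 33 in every list, at 3.04 with EZH2i, 2.66 with CBPi, 3.47 with FSK and 6.90 with vehicle.

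**Figure D2:**
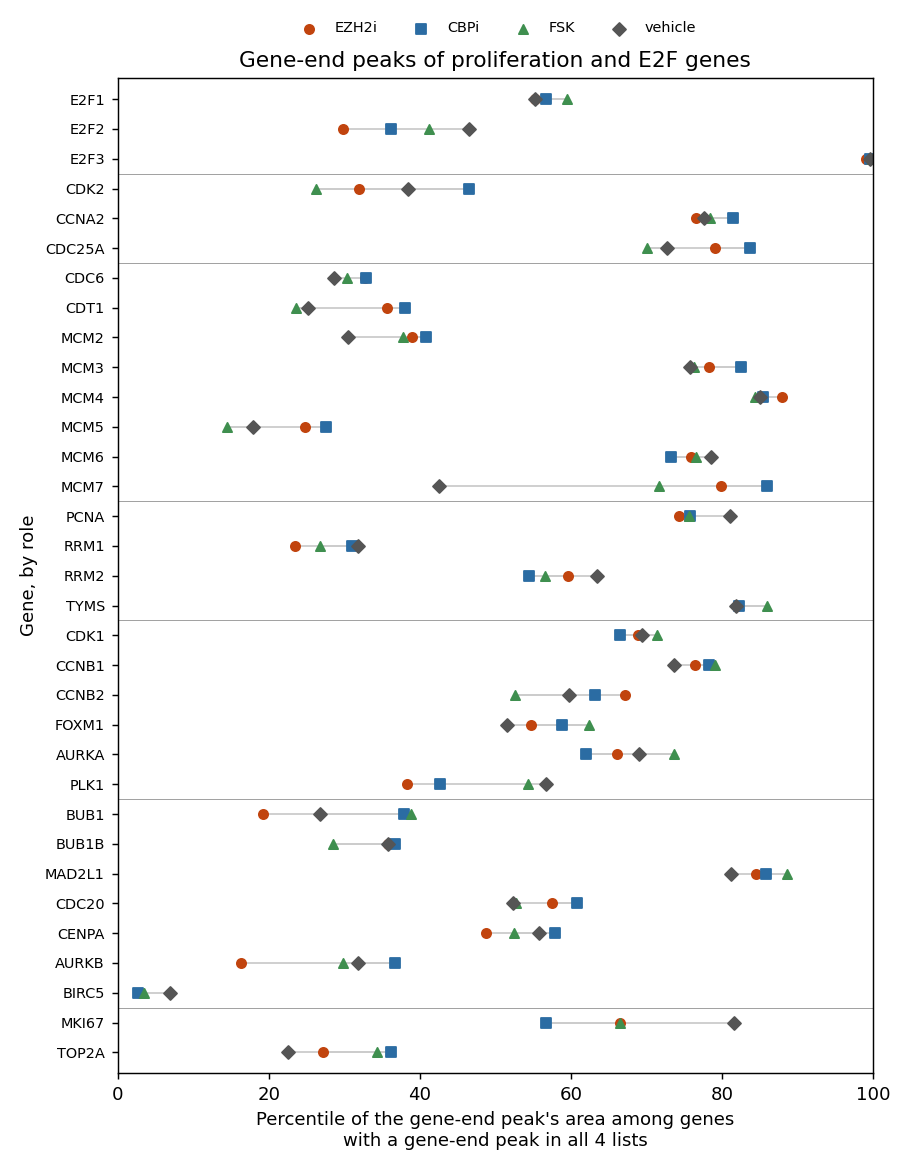
Percentile of each gene's gene-end peak area among the 11883 genes with a gene-end peak in all 4 lists (horizontal axis), for 33 proliferation and E2F genes by role (vertical axis); 1 point per list, with no replicate error. MKI67 lies at 66.5, 56.7 and 66.5 with EZH2i, CBPi and FSK and at 81.6 with vehicle, and MCM7 at 79.8, 86.0 and 71.7 and at 42.6 with vehicle.

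Distal peaks were kept less fully than gene-end peaks. With EZH2i 15 of 33 distal vehicle peaks were kept (45.5%, Wilson 95% interval 29.8 to 62.0), against 56.4% of 39237 distal vehicle peaks of all genes, where the background of lost peaks was 43.6%. With CBPi 27 of 33 were kept (81.8%, 65.6 to 91.4), against 66.7% of all (background lost 33.3%). With FSK 18 of 33 were kept (54.5%, 38.0 to 70.2), against 64.4% of all (background lost 35.6%). Each interval held the share of all genes. The 90 other cell cycle genes kept 70 of 143 with EZH2i, 94 with CBPi and 91 with FSK. Distal peaks of 1 gene share a locus, and the intervals treat them as independent.

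Small distal peaks made up most of the losses. Of the 20 distal vehicle peaks at or below the vehicle-list median area, 4 were kept with EZH2i (20%, 8.07 to 41.6, all genes 31.7%), 14 with CBPi (70%, 48.1 to 85.5, all genes 46.8%) and 7 with FSK (35%, 18.1 to 56.7, all genes 44.1%). Of the 13 above it, 11 were kept with EZH2i (84.6%, all genes 89.96%), 13 with CBPi (100%, all genes 93.8%) and 11 with FSK (84.6%, all genes 91.9%). Inside genes the kept counts were 5, 11 and 6 of 12 with EZH2i, CBPi and FSK, against 56.0%, 66.7% and 64.4% over all genes. Outside genes up to 10 kb away they were 5, 7 and 4 of 9, against 60.5%, 73.4% and 66.2%. Farther out they were 5, 9 and 8 of 12, against 56.3%, 64.7% and 64.0%.

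Of the losses above the median area, both came from single peaks that were absent with EZH2i and FSK. One lay 7062 bp upstream of MCM6, a helicase subunit gene, at chr2:135883159-135883949, over 791 bp, with an area of 663.6 in the vehicle list and 246.1 over a narrower peak in the CBPi list. The other lay inside MKI67, 1162 bp downstream of its start, at chr10:128124332-128125325, over 994 bp, with an area of 652.2 in the vehicle list and 371.2 in the CBPi list. Both areas were close to the vehicle median, since 45.1% and 45.6% of vehicle peaks were larger. The other distal losses had vehicle areas from 202.4 to 566.5.

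MKI67 had the most vehicle peaks, 6 in all, followed by MCM3 with 5, and CDK1, RRM2, MAD2L1 and MCM5 with 4 each. Upstream of MKI67 the peaks 23735 bp away (chr10:128149975-128150644), 83914 bp away (chr10:128210015-128210860) and 85655 bp away (chr10:128211786-128212530) were present in all 4 lists. A smaller one 52112 bp upstream, of area 345.3 at chr10:128178366-128178643, was present with FSK and absent with EZH2i and CBPi. MCM3 had distal peaks at 2269, 33232 and 33656 bp upstream, of areas 262.8, 376.3 and 204.3. EZH2i kept none of those, CBPi the first and the second, and FSK the second. CDK1 had distal peaks at 9277, 16084 and 21941 bp from the gene, of areas 227.5, 217.7 and 300.8, and CBPi kept the ones at 16084 and 21941 bp while EZH2i and FSK kept none.

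The largest distal peaks were held by all lists, and those of PCNA and UHRF1 lay at annotated starts inside the gene. Inside PCNA, 5065 bp from an end, a vehicle peak of area 3630 at chr20:5119210-5120471 had its summit 60 bp upstream of a second annotated start. Its summit was 60 bp upstream of that start with EZH2i, 102 bp upstream with CBPi and 59 bp upstream with FSK. At RRM2 a peak of area 2292 lay 2216 bp upstream of the gene, at chr2:10119997-10120920, and at CDC25A a peak of area 1793 lay 5434 bp beyond the 3′ end, at chr3:48151397-48152474. E2F2 held peaks 2778 bp inside the gene and 8847 bp upstream of it in every list, of areas 901.4 and 756.2 with vehicle. MAD2L1, a spindle checkpoint gene, RRM1 and MCM5 each had at least 1 distal peak present in all 4 lists, at 5619 bp, 43345 bp and 23166 bp beyond the gene.

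**Figure D3:**
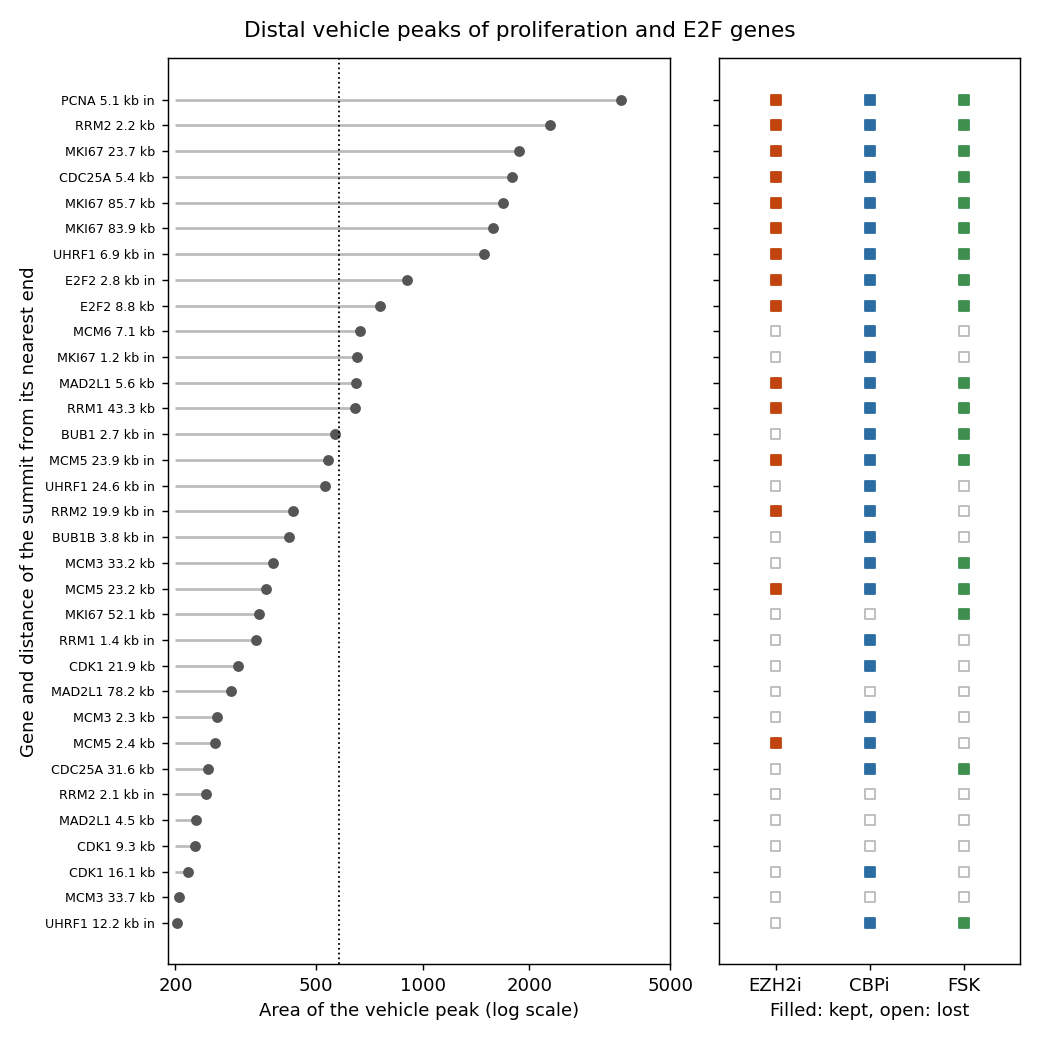
Left, area of each of the 33 distal vehicle peaks (log scale, list median dotted) by gene and distance of the summit from the nearest gene end, with "in" for summits inside the gene. Right, filled squares mark peaks kept and open squares peaks lost with EZH2i, CBPi and FSK; the 9 largest were kept in every list, and EZH2i kept 15, CBPi 27 and FSK 18 of 33.

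Gained peaks, with no vehicle peak under them, were few and all distal. Of gene-end peaks 0 of 28 with EZH2i, 0 of 30 with CBPi and 0 of 28 with FSK were gained, against backgrounds of 1.63%, 3.25% and 2.59%. Of distal peaks 0 of 16 with EZH2i, 5 of 32 with CBPi and 2 of 20 with FSK were gained, against 8.78%, 13.9% and 18.9%. With both classes together, EZH2i gained 0 of 44 (upper bound 8.03%), where 6.5% of the EZH2i peaks assigned to all genes were gained. CBPi gained 5 of 62 (8.06%, 3.49 to 17.5, background 10.9%), and FSK 2 of 48 (4.17%, 1.15 to 14.0, background 14.5%). The pooled shares compare unlike mixes, since gene-end peaks are rarely gained. With FSK gene-end peaks made up 58.3% of the peaks of these genes, against 27.15% over all genes. Among distal peaks alone, the FSK interval of 2.79 to 30.1% held the background of 18.9%. The CBPi peaks lay 74979 bp beyond MAD2L1 (chr4:119980547-119980772, area 226.1), 10652 bp upstream of BUB1B, a checkpoint kinase gene (chr15:40150194-40150473, area 201.6), and 4395 bp beyond AURKB (chr17:8200084-8200660, area 386.1). A pair lay 36406 and 36919 bp from MCM5, at chr22:35491294-35491662 and chr22:35491839-35492093, with areas 200.1 and 234.5. The FSK peaks lay inside MAD2L1, 1800 bp from an end (chr4:120057228-120057646, area 257.1), and 3990 bp upstream of CDT1 (chr16:88799713-88800275, area 422.1). All 7 had areas below the median of their own list, which was 641.7 with CBPi and 535.5 with FSK.

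Where a promoter table entry existed, for 28 of the 34 genes, summits could be set against the annotated start. CDK2, MCM4, MCM5, FOXM1, AURKA and BIRC5 had no entry. All 28 had a summit within 1 kb of a start in each list. Of all 15812 genes with an entry, 10705 had one with EZH2i, 10942 with CBPi, 10662 with FSK and 10951 with vehicle. The values given next for all genes cover only those with such a summit. The median summit stood 102.5 bp upstream with EZH2i, 75 bp with CBPi, 87 bp with FSK and 90 bp with vehicle, against 50, 54, 46 and 49 bp over all genes. Summits upstream of the start were found for 24 genes with EZH2i (85.7%, all genes 70.7%), 23 with CBPi (82.1%, 72.1%), 24 with FSK (85.7%, 67.1%) and 23 with vehicle (82.1%, 69.4%). RRM2 kept its summit 72 bp downstream in every list. MCM3 stayed 241 to 247 bp upstream, and TOP2A 166 to 169 bp upstream.

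**Figure D4:**
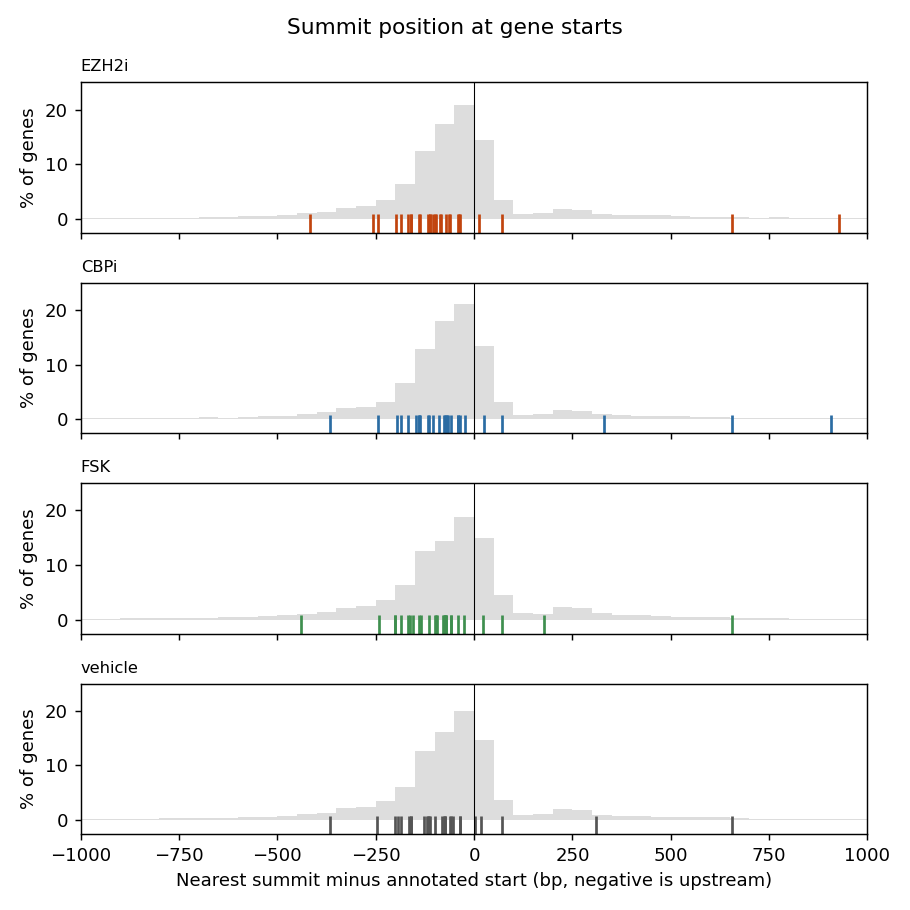
Distance of the nearest summit from the annotated start (horizontal axis, bp, negative upstream) in each of the 4 lists. Grey bars give the percent per 50 bp of all genes with a summit within 1 kb of a start. Coloured ticks give the 28 proliferation and E2F genes. Most ticks lie upstream of the start, with medians 102.5, 75, 87 and 90 bp upstream for EZH2i, CBPi, FSK and vehicle.

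The letters in the promoters of the same 28 genes were searched as a description of sequence and not of binding. Each promoter ran from 250 bases before to 50 bases after the most upstream start. The summit distances above used the nearest start, which at PCNA and UHRF1 was another one. E2F letters were found in 19 of 28 promoters (67.9%, Wilson 95% interval 49.3 to 82.1), against 20.3% of the 9843 promoters of genes with a gene-end peak in all 4 lists and 15.99% of all 15812 promoters. CHR letters were found in 12 of 28 (42.9%, 26.5 to 60.9), against 14.9% and 19.7%, and CCAAT in 23 of 28 (82.1%, 64.4 to 92.1), against 37.6% and 36.4%. Among 76 other cell cycle promoters E2F letters were found in 36, CHR letters in 32 and CCAAT in 37. Letters on both strands were counted, TTTAAA, which reads the same on both, once. The 34 genes were chosen partly as E2F genes, so their E2F share describes that choice.

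The letters divided by role. E2F letters stood in 14 of the 16 promoters of the S phase genes (the E2F factors, S phase entry, licensing and synthesis) and in 5 of the 12 of the mitotic genes and proliferation markers. CHR letters stood in 2 of 16 and 10 of 12. As shares, E2F letters stood in 87.5% and 41.7% (Wilson 95% interval for the latter 19.3 to 68.05). Promoters of genes with a gene-end peak in all 4 lists had 20.3%. CHR letters stood in 12.5% and 83.3%, against 14.9% of those promoters, so the S phase CHR share was near that background. The 2 S phase promoters with CHR letters were those of E2F3 and RRM1, and the 2 without E2F letters were those of CCNA2, the cyclin of S phase and G2, and MCM2. In CCNB2, PLK1 and MKI67 TTTGAA lay at −29 to −24 from the start, counted with the start as 0, and in CCNB1 TTTAAA lay at −30 to −25. AURKB and BUB1 were the mitotic promoters with neither E2F nor CHR letters in the searched window. For AURKB that window stopped 250 bases before the start, while its summits lay 366 to 439 bp upstream of the start. The sequence under the AURKB summits was therefore not searched. Among the 8 printed stretches, CDK1 carried TTGGCGC at −28 to −22 together with TTTAAA at −131 to −126, and PCNA carried TTCCCGC on the opposite strand at −59 to −53. MKI67 and PLK1, both lower in rank with EZH2i and CBPi, had CHR letters and no E2F letters. E2F2, lower by area rank with both as well (−16.71 and −10.3 points), had E2F letters and no CHR letters. CCNB2, CDC20 and TOP2A also had CHR letters and no E2F letters, and their places differed from vehicle by 7.38, 5.16 and 4.74 points with EZH2i and by 3.45, 8.41 and 13.71 points with CBPi.

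**Figure D5:**
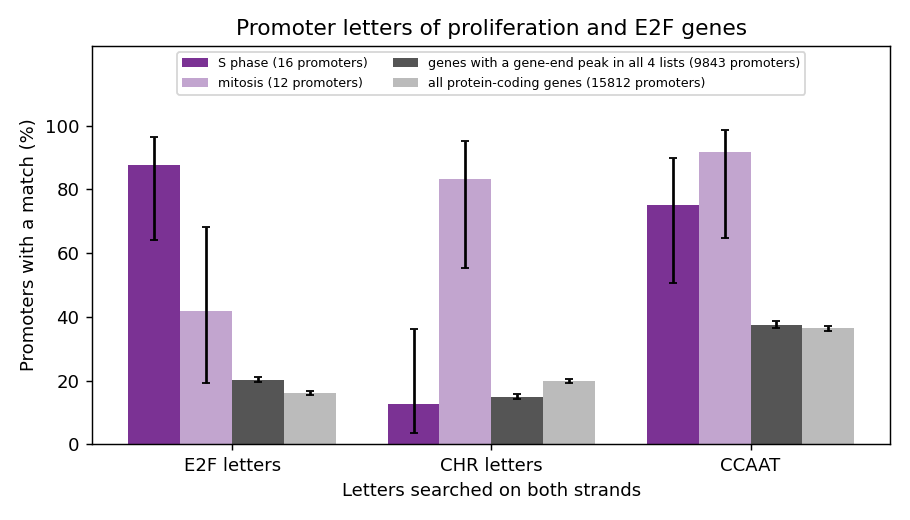
Percent of promoters with E2F letters, CHR letters or CCAAT (vertical axis) for 16 S phase genes, 12 mitotic genes and markers, 9843 genes with a gene-end peak in all 4 lists and all 15812 genes with a promoter entry. Bars are shares with Wilson 95% intervals (counting error only); S phase genes have E2F letters in 14 of 16 and CHR letters in 2 of 16, mitotic genes in 5 of 12 and 10 of 12.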

How the data were processed

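ATAC-seq peaks of 8 libraries in 4 groups were analysed from 4 deposited lists, 1 per group. Per the submitters' processing notes the build was hg38 and the tools included Bowtie2, Genrich and deepTools 2.0. Tool settings, the peak threshold, any Tn5 shift and the way each group's 2 libraries were merged were not given in the sources used here. Per the file columns the authors deposited a signal for each peak (area of significance), −log10 of the p-value at the summit, a score and a summit offset. The deposited score was not used.

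Summits were assigned to 19974 RefSeq genes (GRCh38.p14). Vehicle peaks counted as kept if a treated peak overlapped them by 1 bp or more. Shares carry Wilson 95% intervals, which cover counting error only, since depth is unknown. With 1 list per group no test between groups was possible. The assignment and overlap steps were checked on simulated data. Named peaks were those lost above the vehicle median area, those gained, the 3 largest and 3 smallest gene-end peaks, the genes with the most peaks and those whose gene-end peak differed between lists. The members and lists were chosen with earlier results of these data known, and the splits by area and place, the gene-end rank and the summit distances were added after seeing the data. Python 3.11.15, numpy 2.4.6, pandas 2.3.3 and scipy 1.17.1 were used. One further list of cell type markers is not reported here.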

Additional observations from a re-analysis of the deposited data

How the results depend on the processing

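With 9 other settings for each share, and 2 rankings added after seeing the data, 18 of the recomputed values moved and 75 did not, a share counting as moved when it left its Wilson interval and a number of genes when it changed by over 1.5 times. Gene-end peaks kept became 100% with EZH2i, CBPi and FSK, both when the 4 lists were shortened to equal length and when only the larger-area 50% of vehicle peaks were counted, which leave out the small peaks that were lost. Over all genes the shares were then 97.6%, 98.4% and 95.1% at equal length, and 99.3%, 99.8% and 99.1% among larger-area peaks. Distal peaks kept became 72.2% with EZH2i and 72.2% with FSK at equal length, against 78.1% and 73.7% over all genes. Among larger-area peaks they became 84.6% with EZH2i, 100% with CBPi and 84.6% with FSK, against 89.96%, 93.8% and 91.9%. Gained peaks became 0 with CBPi and 0 with FSK among larger-area peaks, against 1.02% and 3.2% over all genes. Of 33 genes, those higher by 10 points or more with EZH2i became 0 by summed area (background 7.81%) and 5 by −log10 p at the summit (background 10.1%). By −log10 p, those lower with CBPi became 6 (background 15.4%), those higher with CBPi 11 (background 15.96%) and those lower with FSK 8 (background 11.4%). The cause of these rank changes was not tested. Leaving out a replicate was not possible with 1 list per group. No paired analysis was possible because each group has 1 list and no replicate columns. Depth is unknown, so a lost peak may have fallen just under the caller's threshold.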
